A study of Caenorhabditis elegans with 2 samples.

Results

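The 9 genes described here encode scaffold proteins of the dense body and the M-line, the structures that hold actin and myosin filaments to the membrane of body wall muscle in Caenorhabditis elegans. They were taken by symbol from the WBcel235 annotation, out of 19973 nuclear protein-coding genes: atn-1, alp-1, zyx-1, dim-1, unc-95, lim-8, lim-9, unc-96 and unc-98. Their measurements were the regions bound by UNC-120, the muscle transcription factor of the SRF type, in an anti-GFP ChIP-seq experiment (chromatin immunoprecipitation and sequencing) on whole embryos. All embryos were of strain OP659, which carries the mutation unc-119(tm4063) and the transgene wgIs659, a fusion of UNC-120 with GFP and FLAG at its C terminus. They were of mixed stage and mixed sex, collected 3 h after egg bleaching, and formed 1 group of 2 biological replicates with no second condition. The tagged protein came from 1 transgenic line, chromatin came from all embryonic tissues together, and the control library that the labels mention was not used here. No comparison between conditions could therefore be made, and binding in muscle cells could not be told apart from binding elsewhere in the embryo.

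Dense bodies anchor the thin filaments and correspond to vertebrate Z-discs, and M-lines anchor the thick filaments. Both sit on integrin in the muscle cell membrane, and proteins with LIM domains, zinc-binding modules that join proteins together, link the integrin complex to the filaments. UNC-120 acts with the MyoD homologue HLH-1 to build body wall muscle, and the SRF family to which it belongs binds the CArG box in the promoters of contractile and cytoskeletal genes of other animals.

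A gene was counted as bound when the summit of a region in the authors' ce11 list, thresholded on the irreproducible discovery rate (IDR), lay between 5 kb upstream of the gene and its 3' end. Of the 9 scaffold genes 7 were bound by this rule, where 19.7% of all protein-coding genes were. The window grows with the gene, and the share of all genes bound was 23% for windows from 7.5 to 10 kb, 32% from 10 to 20 kb and 46% from 20 kb on. The scaffold genes had 1 of 2, 5 of 6 and 1 of 1 bound in these classes. A narrower rule asked for a summit from 1000 bp upstream to 500 bp downstream of any annotated transcript 5' end, and 6 of the 9 genes met it, against 9.26% of all genes. A gene with more annotated 5' ends has more such windows, and these 9 genes have 28. Without internal 5' ends 3 of the 9 met the rule, against 8.44% of all genes, as atn-1, lim-8 and lim-9 dropped out. No share by number of 5' ends was computed. The 7 bound genes held 14 summits, and unc-95 and unc-96 held none. Each region carries a score, the strength that the authors' peak caller gave it, on a scale not given in the sources used here. In the 2946 nuclear regions of the IDR list it ranged from 185 to 2614 with a median of 293, and rank 1 is the highest. The 14 summits of the scaffold genes had a median score of 369, and 10 of them were above the median of the list. Sequencing depth is unknown, since no read counts are in the files. Members were chosen with earlier results of these data known, so these counts describe the genes and were given no test.

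Most of the summits lay inside the genes, and dim-1 and lim-9 held most of these. Of the 14 summits, 10 lay in introns, 4 upstream and 0 in exons. All 8 summits of dim-1 and lim-9 were in introns, and in the other 5 bound genes 2 of 6 were. Over all pairs of a bound gene and a summit, 15.8% of summits lay in introns, and the share was 37% for genes whose windows were 10 kb or longer. Inside the gene body itself, 4 of the 9 genes held a summit (atn-1, dim-1, lim-8 and lim-9), against 3.68% of all genes. That share covers genes of every length, and a longer gene body offers more sequence to hold a summit. These 4 genes span 6.04 to 38.9 kb, while 12028 of the 19973 genes had windows below 7.5 kb. No share for gene bodies of like length was computed. At the outermost 5' end, by contrast, 3 genes had a summit in the narrower window (unc-98, zyx-1 and dim-1), against 8.44% of all genes. The 9 genes have 28 annotated 5' ends, and 9 of these had a summit in that window. Some of the ends lie close together, and 1 summit of zyx-1 counts for 3 of them. No share over all annotated 5' ends was computed. Distances to the nearest own 5' end had a median of 768 bp, and those of all 2946 nuclear summits to the nearest protein-coding 5' end a median of 753 bp.

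**Figure D1:**
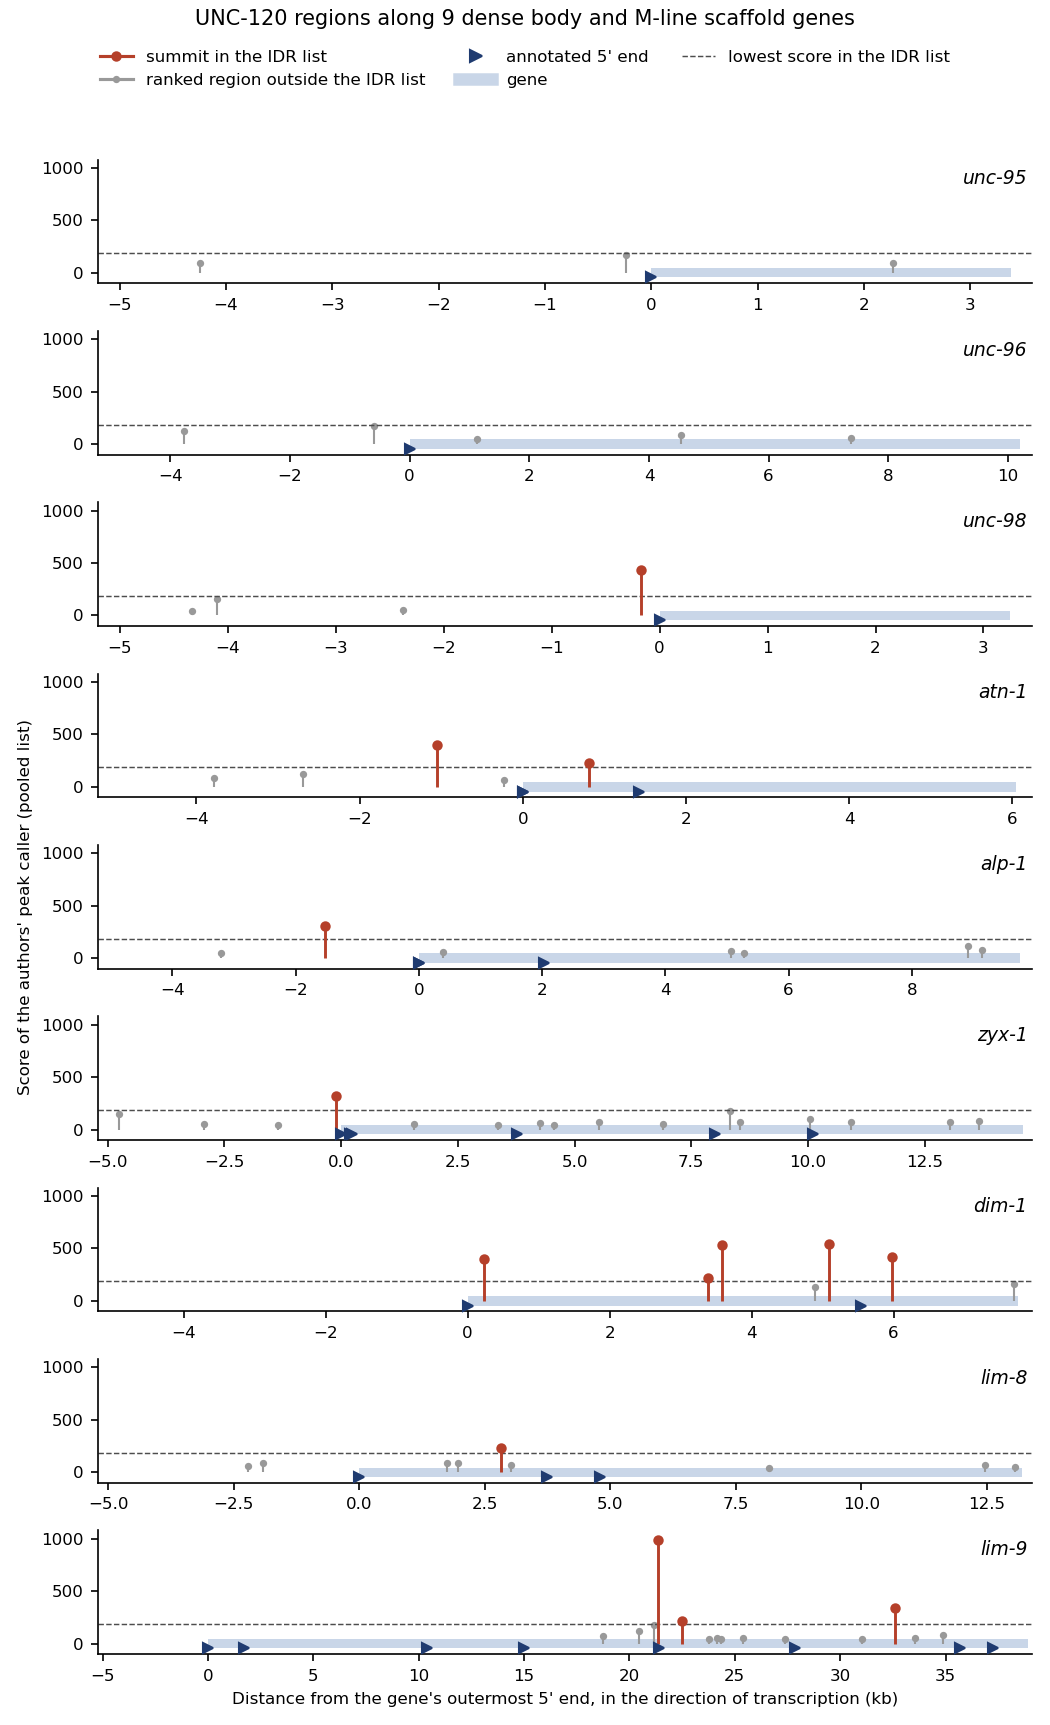
Score of each region of the pooled list (vertical axis) against its distance from the outermost 5' end of the gene in kb (horizontal axis, a scale of its own for each gene). Red marks are summits of the IDR list, grey marks regions outside it, arrowheads annotated 5' ends, and the dashed line the lowest IDR score of 185. The 5 summits of dim-1 and 3 of lim-9 lie within the gene, and the best regions of unc-95 and unc-96 end just under the line.

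The sequences below show what lies under the strongest summit of 5 of the bound genes and bear on whether these summits share a site for a known factor. Each is the summit base with 50 bp on either side, from WBcel235 (ce11) as held by RefSeq, printed 5' to 3' on the strand of the gene. Capitals mark GAGAGA in the zyx-1, dim-1 and unc-98 lines and the transfer RNA gene in the lim-8 line. No capitals are printed for alp-1, which holds no GAGAGA on either strand.
alp-1, plus strand of chrIV:8850913-8851013: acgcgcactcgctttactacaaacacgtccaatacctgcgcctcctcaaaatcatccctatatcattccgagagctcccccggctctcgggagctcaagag
zyx-1, plus strand of chrII:13056742-13056842: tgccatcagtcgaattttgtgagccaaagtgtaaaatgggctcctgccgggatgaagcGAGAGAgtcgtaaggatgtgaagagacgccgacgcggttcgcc
dim-1, minus strand of chrX:8053084-8053184: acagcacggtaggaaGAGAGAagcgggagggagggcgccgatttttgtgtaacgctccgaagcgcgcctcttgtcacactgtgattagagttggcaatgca
unc-98, minus strand of chrX:7573740-7573840: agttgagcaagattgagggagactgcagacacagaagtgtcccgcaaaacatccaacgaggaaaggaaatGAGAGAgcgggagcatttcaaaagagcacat
lim-8, plus strand of chrIII:6805553-6805653: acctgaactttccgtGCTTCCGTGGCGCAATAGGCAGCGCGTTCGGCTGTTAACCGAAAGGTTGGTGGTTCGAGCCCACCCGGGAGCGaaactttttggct

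None of the 14 summits had a CArG box within 100 bp, where 1.46% of all nuclear summits did. A count of 0 says only that these letters are not in these windows. The E-boxes CAGCTG and CACCTG were also at 0 of 14 summits, against 9.4% and 6.59% of all summits. A CArG box with 1 mismatch was near 3 summits, at dim-1, lim-8 and lim-9, against 15.4% of all summits. The repeat GAGAGAGA was near 1, in an intron of lim-9, against 16.3%, and the GATA site TGATAA near 1, upstream of alp-1, against 10.6%. The shorter GAGAGA, which was looked for only after the sequences had been read, lay within 50 bp of 6 of 14 summits (42.9%). It lay as close to 33.9% of all summits, so its share at these genes was near the background, and lay in a window of the printed length ending at the outermost 5' end for 8.8% of protein-coding genes. Mean GC content within 100 bp was 46.7% at these summits and 45.6% at all summits. All motifs were read on both strands, and GAGAGA is part of GAGAGAGA. The CArG box and the MEF2 type site are given by name, and both are rich in A and T at their centre.

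For atn-1, the gene of alpha-actinin, which crosslinks actin filaments in the dense body, the list held 2 summits on either side of the outermost 5' end on chromosome V (gene at 12478411 to 12484449, plus strand). The upstream summit lay 1046 bp before that end, just outside the 1000 bp window. It scored 398 and ranked 827 among the nuclear regions. Its nearest summits in the replicate lists had scores of 246 and 167 and ranks 456 and 1323 in replicates 1 and 2, so that replicate 1 placed it higher. The other summit, at 12479223, was in an intron, 812 bp downstream of the outermost 5' end and 607 bp upstream of the 5' end of the transcripts W04D2.1c.1 and W04D2.1d.1. It was weaker, scoring 230 at rank 2168, with scores of 133 and 107 and ranks 1671 and 2776 in replicates 1 and 2. By the narrower rule atn-1 was bound only through this internal 5' end.

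At alp-1, which encodes a protein of the ALP and Enigma family with a PDZ domain and LIM domains that is found with alpha-actinin at dense bodies, 1 summit lay upstream and none at a 5' end. It was at 8850963 on chromosome IV, 1531 bp before the outermost of 3 annotated 5' ends, in a region 171 bp wide that scored 303 and ranked 1391. The replicates placed it close together, with scores of 157 and 153 and ranks 1229 and 1574. This summit lay inside a pseudogene, T11B7.6, of 263 bp, and the nearest 5' end of another protein-coding gene was that of col-118, 2743 bp away. TGATAA began 91 and 62 bases before the summit on the strand of alp-1. Within the gene the best region, in a coding exon near the 3' end, ranked 5721, far outside the IDR list.

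The zyxin gene zyx-1, whose LIM protein is found at dense bodies and in the nucleus of muscle, has 6 annotated 5' ends over 14.6 kb of chromosome II. Its 1 summit, at 13056792, lay 118 bp before the outermost of them and within the window of the first 3. The score was 320 and the rank 1261, with scores of 171 and 154 and ranks 1061 and 1554 in replicates 1 and 2. None of the remaining 3 annotated 5' ends, further into the gene, had a summit in its window. The best region near the 5' end of F42G4.3d.1 lay 321 bp downstream of it and ranked 3134, and its score of 176 was 95.6% of the lowest IDR score. Another lay 65 bp upstream of the 5' end of F42G4.3b.1 and ranked 6742. Of the 16 regions of the pooled ranked list in the window of zyx-1, 15 were outside the IDR list.

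The gene with most summits was dim-1, which encodes an immunoglobulin domain protein located near the dense bodies and known as a genetic suppressor of the kindlin gene unc-112. It held 5 summits, all within introns, where 0.0901% of all protein-coding genes had 5 or more in their windows. That share covers windows of every length, and none was computed for windows near the 12.8 kb of dim-1. The gene lies on the minus strand of chromosome X, from 8050466 to 8058220, with an outermost 5' end for the transcript C18A11.7a.1 and an internal one 5540 bp downstream for C18A11.7b.1. Around the internal 5' end lay a summit 454 bp upstream that scored 540 and ranked 369, and another 437 bp downstream that scored 421 and ranked 706. A further pair 203 bp apart lay 1957 and 2160 bp upstream of it, with scores of 533 and 219. The stronger of these, at 8054637, lay inside a noncoding RNA gene of 136 bp, C18A11.10. With 1 summit counted per 400 bp, the pair 203 bp apart counts as 1, and the scaffold genes hold 13 summits in place of 14. The remaining summit, at 8057990, was 230 bp downstream of the outermost 5' end, scored 398 and ranked 833.

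The replicates placed the strongest summits of dim-1 close together and the weak one far apart. The summit 454 bp upstream of the internal 5' end had scores of 281 and 261 and ranks 317 and 457 in replicates 1 and 2. The one 1957 bp upstream had scores of 268 and 256 and ranks 366 and 480. For the weak neighbour, 203 bp from it, the nearest regions had scores of 64.8 and 127 and ranks 4781 and 2164, the first of them below the top 2946 regions. The summits 437 bp and 230 bp downstream of the internal and the outermost 5' end ranked lower in replicate 1 (988 and 1226) than in replicate 2 (489 and 586).

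The dim-1 summit nearest the outermost 5' end had the only MEF2 type site within 100 bp of any of the 14 summits, where 2.51% of all nuclear summits had one. It began 58 bases downstream of the summit, and a CArG box with 1 mismatch began 33 bases downstream. The stretch from the summit onward is shown with the MEF2 type site in capitals, on the minus strand of chromosome X.
dim-1, minus strand of chrX:8057910-8057990: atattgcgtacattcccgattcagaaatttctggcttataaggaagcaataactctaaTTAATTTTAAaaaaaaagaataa

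This window was poor in GC, at 31.8% over 201 bp, the lowest of the 14. The window of the strongest dim-1 summit had 57.2%, the highest, so the summits of 1 gene spanned the whole range. The match is a property of the letters and does not show that a factor of the MEF2 type is present.

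Of the LIM domain genes whose proteins are found at both dense bodies and M-lines, lim-9 and lim-8 had summits and unc-95 had none. The gene lim-9, of the FHL family of LIM proteins, held the strongest summit of all 9 genes. It was at 9199382 on chromosome I, scored 984 and ranked 50, ahead of 98.3% of the nuclear list. Scores were 389 and 601 and ranks 118 and 23 in replicates 1 and 2. The gene spans 38.9 kb with 8 annotated 5' ends, and this summit lay 21346 bp inside it, 71 bp upstream of the fifth 5' end, that of F25H5.1b.1. No other 5' end of lim-9 had a summit in its window, and for the outer 4 the pooled list held no region there at all.

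The other 2 summits of lim-9 were also in introns. That at 9188106 scored 340 and ranked 1133, with scores of 144 and 205 and ranks 1431 and 875 in replicates 1 and 2. It lay 3070 bp upstream of the nearest 5' end, that of F25H5.1d.1. Of the 14 summits it was the one with GAGAGAGA within 100 bp, beginning at the summit base itself. The summit at 9198236 lay 1075 bp downstream of the 5' end of F25H5.1b.1. It scored 216 and ranked 2395, with scores of 93.1 and 131 and ranks 2869 and 2049 in replicates 1 and 2. Replicate 2 ranked all 3 lim-9 summits higher than replicate 1. A further region, at 9199585 beside the strongest summit, scored 181 and, at rank 3028, was just below the IDR list.

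For lim-8, a gene of a protein with a PDZ domain and LIM domains, the single summit lay inside a gene of another kind. At 6805603 on chromosome III it fell within a transfer RNA gene, F28F5.t1, of 73 bp, that sits in an intron of lim-8 on the same strand, and the capitals in the lim-8 sequence above show it. The score was 231 and the rank 2153, the weakest best summit of the 7 bound genes, with scores of 104 and 129 and ranks 2439 and 2117 in replicates 1 and 2. Summits inside transfer RNA genes made up 133 of the 2946, or 4.51%. This summit was 929 bp upstream of the 5' end of F28F5.3a.1, which is why lim-8 met the narrower rule, and the pooled list held no region in the windows of its other 5' ends. Whether the region belongs to lim-8 or to the transfer RNA gene was not tested.

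The paxillin-like LIM protein gene unc-95 had no summit in the IDR list. Its best region in the pooled ranked list, the longer list from which the IDR list is the top, lay 237 bp upstream of its single 5' end, at 14384974 on chromosome I, and ranked 3368. Its score of 166 was 90.1% of the lowest IDR score, 185. The nearest summits in replicates 1 and 2 had scores of 68.3 and 106 and ranks 4409 and 2813, so replicate 2 placed the region within its top 2946 and replicate 1 did not. The other 2 regions in the window had scores of 89.2 and 88.8.

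Of the M-line genes unc-96 was without a summit and unc-98 had 1. At unc-96, whose protein lies at M-lines and binds UNC-98, the best region was 588 bp upstream of the gene's single 5' end, at 621878 on chromosome X. It scored 170, which is 91.9% of the lowest IDR score, and ranked 3290. Scores were 59.6 and 122 and ranks 5475 and 2279 in replicates 1 and 2, a wider spread than at unc-95 in the same direction. A second upstream region, 3771 bp before the gene, had a score of 121, and the 3 regions within the gene had scores from 45.8 to 83.7.

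The other, unc-98, encodes a zinc finger protein found at M-lines and in muscle nuclei. Its summit lay 171 bp upstream of its single 5' end, at 7573790 on chromosome X, scored 431 and ranked 667. The replicates placed it almost alike, with scores of 210 and 232 and ranks 695 and 643. The summit also lay in an intron of pcyt-1, a gene on the opposite strand whose span covers the start of unc-98. A model of 39 bp, F08C6.18, has its 5' end 9 bp upstream of that of unc-98 and so is the nearest annotated start. This was the only one of the 14 summits closer to the 5' end of another protein-coding gene.

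**Figure D2:**
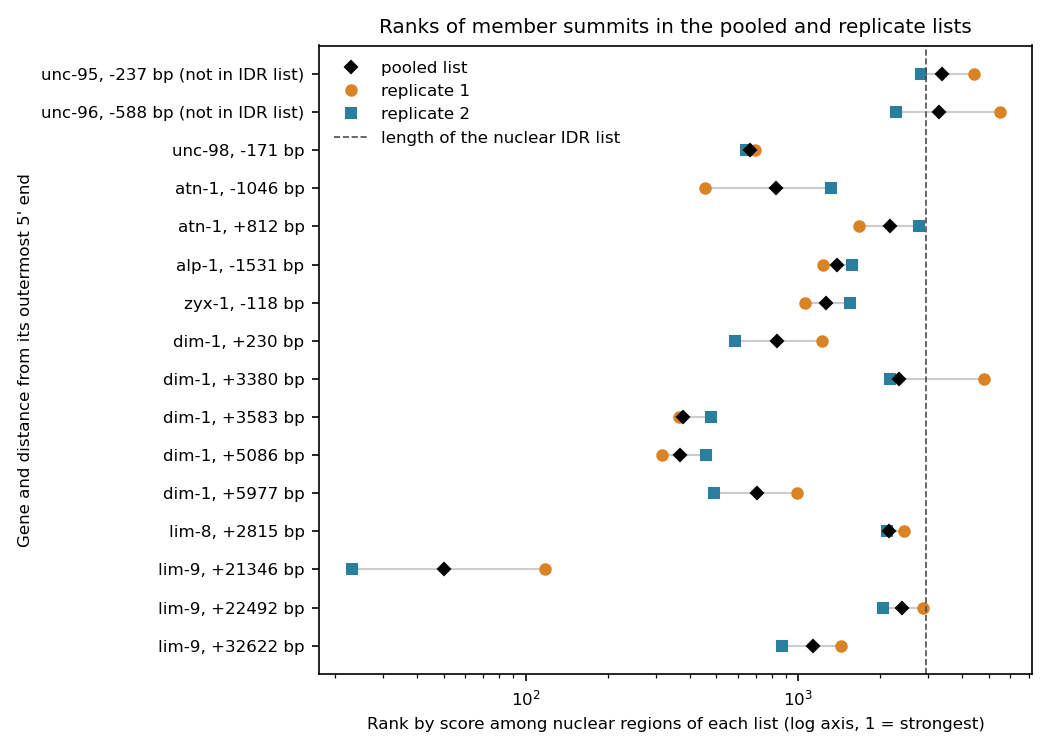
Rank by score of each of the 14 summits, and of the best regions of unc-95 and unc-96, in the pooled list (diamonds), replicate 1 (circles) and replicate 2 (squares), on a log axis with rank 1 the strongest. The dashed line marks rank 2946, and the regions of unc-95 and unc-96 fall on its weak side in the pooled list and replicate 1 and on its strong side in replicate 2.

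All 14 summits had a region within 200 bp in both replicate lists. In replicate 1, 13 of them were among the top 2946 regions, the exception being the weak summit of dim-1, and in replicate 2 all 14 were. Replicate 1 gave the better rank to 6 and replicate 2 to 8, and the first group included both summits of atn-1 and those of alp-1 and zyx-1. For the intron summit of atn-1 the region in replicate 2 lay 104 bp away, so a limit of 100 bp would leave it without a match there. Taking the top 2946 regions of replicate 2 in place of the IDR list brought in unc-95 and unc-96, so that all 9 genes were bound, against 19.8% of all genes. By the narrower rule 8 of 9 were bound in that list, against 9.25% of all genes, with alp-1 the exception. With 2 libraries this difference between replicates could not be tested, and the IDR list is itself the top of the pooled list.

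The 10 other genes of the integrin adhesion and dense body and the 6 of the M-line and giant muscle proteins gave the setting for these 9. By the wider rule all 10 and all 6 were bound, against 19.7% of all genes, and by the narrower rule 5 and 3, against 9.26%. The windows of the adhesion genes had a median of 10.8 kb, and of all genes with windows from 10 to 20 kb 32% were bound. The windows of the M-line and giant protein genes were long, with a median of 28.9 kb, and of all genes with windows of 20 kb or more 46% were bound. The strongest among the adhesion genes was unc-112, the kindlin gene, with a score of 1240, followed by the vinculin gene deb-1 with 750 and the talin gene tln-1 with 736. Among the M-line and giant proteins the twitchin gene unc-22 had a score of 801, the kinase gene unc-82 a score of 636 and the obscurin gene unc-89 a score of 563. The strongest summit of deb-1 lay 4478 bp upstream of the gene. Of 7 LIM homeobox genes, whose LIM domains belong to transcription factors mainly of neurons, 1 was bound, a share no higher than the 19.7% of all genes. Their windows had a median of 9.96 kb. Of all genes 23% were bound for windows from 7.5 to 10 kb and 32% for windows from 10 to 20 kb. The bound homeobox gene was ceh-14, with a score of 287 and a summit 4580 bp into the gene, and lim-4 and lim-6 were among the 6 without a summit. Over the adhesion, M-line and homeobox lists together 17 genes were bound. With 2 kb upstream 13 were, against 13.7% of all genes. Counting a summit only for its nearest 5' end also gave 13, against 10.6%. By these 2 settings, then, not all of the adhesion and M-line genes stayed bound. The strongest summit of each of the 7 bound scaffold genes had a median score of 398, and that of all bound genes in the genome 317, both taken only over genes that passed the threshold.

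**Figure D3:**
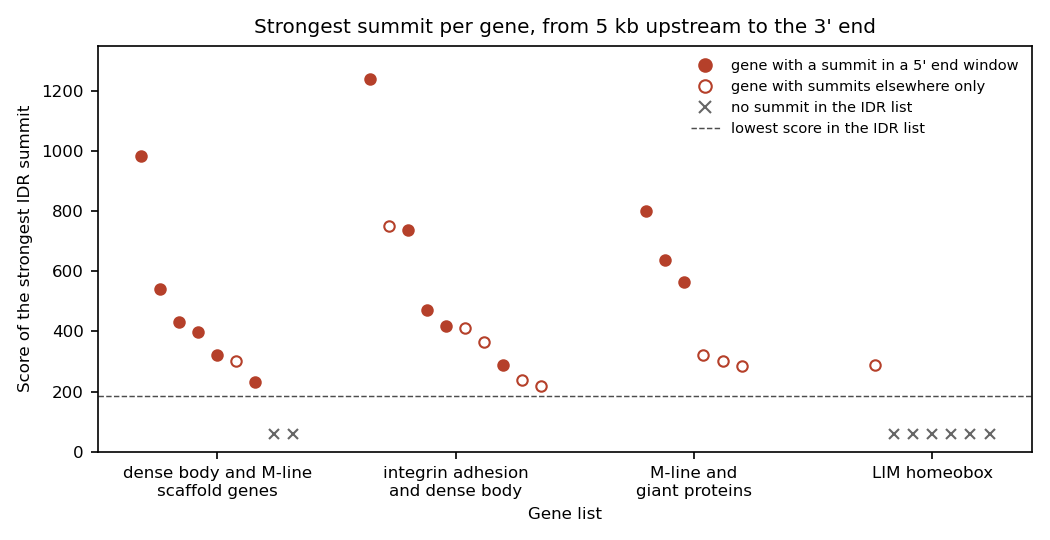
Score of the strongest IDR summit of each gene in 4 lists (horizontal axis), from 5 kb upstream to the 3' end. Filled circles are genes with a summit in the window of a 5' end, open circles genes with summits elsewhere only, and crosses, drawn below the dashed line of the lowest IDR score, genes with none. The 2 crosses of the scaffold genes are unc-95 and unc-96, and 6 of 7 LIM homeobox genes are crosses.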

How the data were processed

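The files were narrowPeak lists of ChIP-seq regions that the authors made in ce10 and ce11. Only the ce11 lists were used: 1 for each replicate and 1 for both pooled, each with ranked peaks and background, and the optimal IDR list, per the listing deposited with the samples. The score in column 7 is the strength that the authors' peak caller gave each region, on a scale not given in the sources used here. Aligner, caller and versions are not given there either, and the lists hold no read counts, so depth is unknown and no value carries a counting interval. Setting aside 5 mitochondrial regions left 2946 nuclear peaks, all of them in the pooled list and all at or above its score of 185.

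Gene models were those of Ensembl release 115 on WBcel235, the assembly of ce11, and no region passed a chromosome end. Members, lists and named genes were chosen with earlier results of these data known. Named genes were the 9 members, for each other list the 3 bound genes of highest score and 2 unbound ones (fewer where there were fewer), and genes whose 5' end was nearer to a summit than the member's own. The MEF2 window of dim-1, GAGAGA and the genes named because a summit lay inside or near them were chosen after their values were seen. Ranks count nuclear regions by descending score, matched to the nearest replicate summit within 200 bp. With 1 group of 2 replicates no test was run. The alternatives changed the windows, the gene assignment, the peak list and the motif window. The sequence at the strongest atn-1 summit is not reported here. Functions were checked on simulated summits. Computations used Python 3.11.15, numpy 2.4.6, pandas 2.3.3 and matplotlib 3.10.9.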

Additional observations from a re-analysis of the deposited data

How the results depend on the processing

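Of 22 counts recomputed under other settings, 20 stayed within 1.5 times. The number of bound scaffold genes was 4 with the gene body only, and the number bound at a 5' end was 3 with the outermost 5' end only, both because these settings leave out summits by construction. Leaving out each replicate in turn gave 7 to 9 bound genes, 6 to 8 bound at a 5' end and 14 to 17 summits, and the upper values, without replicate 1, came with unc-95 and unc-96. Of all genes 19.4% were bound without replicate 2 and 19.8% without replicate 1. At a 5' end the shares of all genes were 9.03% and 9.25%. Among the 1473 highest scoring regions of the IDR list, 6 genes were bound, without lim-8, against 11% of all genes, and 4 at a 5' end, against 4.86%. Counting a summit only for its nearest 5' end removed unc-98, which left 6, against 10.6% of all genes. The settings added after seeing the data were RefSeq 5' ends, which gave 6 genes bound at a 5' end, and the top 10000 regions of the pooled list, in which 9 were bound, against 41.9% of all genes. No share of all genes was computed with RefSeq 5' ends, so that count has no background beside it. Ranks of the strongest summits stayed within the top 2946 in both replicates. Motif counts moved by more than 1.5 times in 7 of 14 cases with other window sizes. Within 200 bp CAGCTG was near 1 summit, in lim-9, against 13.3% of all summits. The MEF2 type site was near 2 summits within 200 bp, both in dim-1, against 8.01% of all, and near 0 within 50 bp. No paired analysis was possible because the replicates form 1 group. With depth unknown, a region below the list cannot be called unbound.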
